A study of Mus musculus with 6 samples.

Results

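Cytosolic ribosomal protein genes were examined as 1 group in sorted B lineage cells of the mouse gut and bone marrow. The group holds the genes whose symbol is Rpl or Rps, a number and at most 1 closing letter a, x or l. It comprised 55 of the 19938 genes measured, 34 of the large and 21 of the small ribosomal subunit. Where the array measured a gene more than once, the probe set with the highest mean over the 6 arrays stood for it. Of the 55 symbols, 49 name core proteins and 6 end in l (Rpl3l, Rpl10l, Rpl32l, Rpl39l, Rps4l and Rps27l), the ending given to relatives of a core protein gene.

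All animals were RAG2-GFP/129Sve reporter mice at post-natal days 17 to 25, kept in a regular SPF facility, and both groups carried the reporter. RAG2-GFP marks cells in which the Rag2 recombinase gene is or was recently active, so the sort takes developing lymphocytes. One group was sorted from the small-intestinal lamina propria, which lies under the gut epithelium, and the other from the bone marrow. Each experiment pooled 8 to 12 mice, each tissue gave 3 independent pools, and each pool was hybridised to 1 whole-transcript array. The question in the labels is how expression in the gut cells compares with that in the marrow cells. Each value below is a log2 RMA value, in which 1 unit is a doubling.

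Each cytosolic ribosome carries 1 copy of most of these proteins, wrapped around ribosomal RNA in a large subunit that forms peptide bonds and a small subunit that reads the mRNA. Because the proteins are needed in near equal amounts, their genes are controlled together, and their mRNAs begin with a tract of pyrimidines (the terminal oligopyrimidine motif) through which mTOR signalling, via Larp1, sets their translation. Their mRNAs are short and abundant, and many have processed pseudogenes, copies without introns that a probe may not tell from the parent. Loss of single ribosomal proteins is known for its effects on blood formation, as in Diamond-Blackfan anaemia, and loss of Rpl22 impairs early lymphocytes.

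The start regions were compared with those of all genes. RefSeq sequences (build GRCm38.p6) gave a start for 44 of the 55 genes. In the 30 bases around the start (15 on each side), 16 of the 44 (36.4%) had a run of at least 8 bases that are each C or T on the sense strand, against 13.9% of all 27025 genes in the table. The 6 letters CGGAAG, the core of ETS factor sites, searched on both strands over 250 bases before and 50 after the start, occurred in 30 of the 44 genes (68.2%) and in 18.8% of all genes. Read on the other strand, CTTCCG can overlap a pyrimidine run. Where a gene had several starts, any of them could match. The windows below are from the first start listed. They show 3 genes with long runs (Rpl7a, Rps6 and Rpl4), 3 whose values in marrow pool 3 are described below (Rps2, Rpl10 and Rpl41), and 2 relatives (Rps27l and Rpl10l). Capitals mark the longest pyrimidine run, and each is printed 5′ to 3′ on the sense strand.
Rpl7a: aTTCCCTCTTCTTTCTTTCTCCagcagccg
Rps6: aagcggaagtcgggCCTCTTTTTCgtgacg
Rpl4: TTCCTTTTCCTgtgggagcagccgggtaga
Rps2: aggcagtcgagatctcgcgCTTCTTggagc
Rpl10: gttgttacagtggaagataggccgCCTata
Rpl41: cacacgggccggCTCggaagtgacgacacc
Rps27l: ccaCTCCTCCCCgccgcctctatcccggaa
Rpl10l: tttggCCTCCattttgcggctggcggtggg
The windows lie at chr2:26910792-26910821 (Rpl7a, plus strand), chr4:86857353-86857382 (Rps6, minus), chr9:64173372-64173401 (Rpl4, plus), chr17:24720048-24720077 (Rps2, plus), chrX:74270801-74270830 (Rpl10, plus), chr10:128549154-128549183 (Rpl41, minus), chr9:66946071-66946100 (Rps27l, plus) and chr12:66284387-66284416 (Rpl10l, minus). In the first 3 the run is 21, 10 and 11 bases long (that of Rpl4 begins at the window's edge), and in Rpl10 and Rpl41 it is 3. Among other genes low in marrow pool 3, it is 11 in Rpl28, 10 in Rpl38, 7 in Rps21, 5 in Rpl27 and 4 in Rpl37a. These matches describe the letters in the window only.

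The arrays were not all alike. Their medians over all probe sets lay between 5.34 and 5.48, but the interquartile range was 2.00 and 1.94 in lamina propria pools 1 and 2 against 2.41 to 2.47 in the other 4 arrays. Of 11 measured B lineage markers none lay below the array's median in all arrays, and 10 had a lower mean in the lamina propria. Vpreb1, of the surrogate light chain, ran from 11.67 to 11.92. Rag2, the gene whose reporter the sort used, measured 5.67, 5.75 and 6.06 in the lamina propria and 7.76, 8.49 and 8.28 in the marrow, a difference of -2.35 (95% interval -2.95 to -1.75, limma adjusted p = 0.155). Rag1, its partner, differed by -1.05 (95% interval -1.66 to -0.43), and for both every lamina propria pool lay below every marrow pool. Ribosomal protein genes spanned values from 3.43 to 12.21, and 51 of 55 lay above the array's median in every array. Levels of different genes are not compared as results, since probes differ in brightness. In RNA from sorted pools, fewer cells of a type and less RNA per cell cannot be told apart.

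None of the 55 passed the test between lamina propria and bone marrow (limma, Benjamini-Hochberg adjusted p under 0.05, smallest 0.356), as none of all 19938 genes did (0%). At an unadjusted p under 0.05 there was 1 (Rps27l), against 13.7% of all genes. Every lamina propria pool lay above every marrow pool for 2 of them (14.8% of all genes) and below for 1 (7.27% of all genes). The differences, lamina propria minus bone marrow, ran from -1.41 to 1.01 with a median of 0.11, beside 0.22 over all genes. For 44 of the 55 the difference was under 0.5 in size, which held for 67.9% of all genes. Calls appeared when lamina propria pool 3 was left out, 1 higher (Rps4l, 24.1% of all genes called higher) and 2 lower (Rps27l and Rpl7, 12.1%). With estimated array weights 0 were called higher (16.9%) and 2 lower (Rps27l and Rpl7, 11.1%). These weights were lowest for lamina propria pool 3, at 0.153 against 0.705 to 2.8 in the other arrays. Both settings thus discount the same array.

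**Figure D1:**
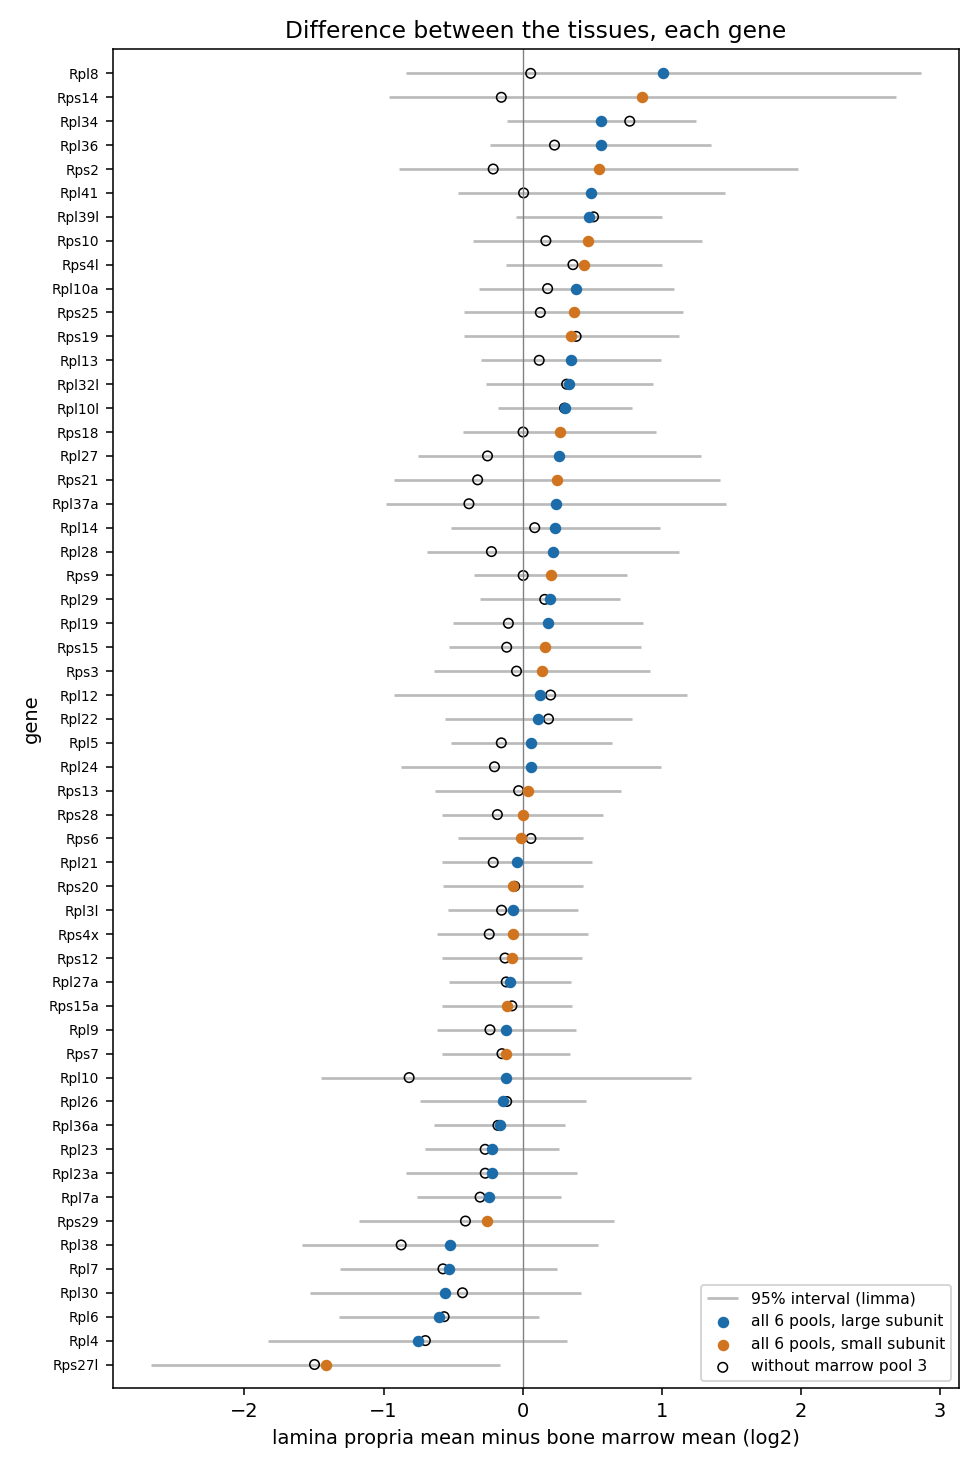
Lamina propria mean minus bone marrow mean in log2 units (x axis) for each of the 55 genes (y axis), with the limma 95% interval as a grey line, colour for the subunit, and an open circle for the difference without marrow pool 3. All intervals but that of Rps27l contain 0, and 12 of the 31 positive differences turn negative without marrow pool 3. With the arrays brought to one interquartile range, 50 are positive.

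The sign of many differences depended on marrow pool 3 and on the scaling. With all arrays 31 of the 55 differences were positive and 24 negative (67.6% of all genes were positive). Without marrow pool 3 only 20 were positive (66.1% of all genes), and the median was -0.12. When all arrays were brought to one interquartile range, 50 were positive (60.8% of all genes) and the median was 0.73. Among 232 other genes with a mean level between 9.43 and 11.14, the middle range of the group, 68 had a positive difference and the median was -0.27, while the 27 ribosomal protein genes in that range had a median of 0.14.

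Rps27l, a relative of Rps27 that p53 is known to induce, had the largest difference. It measured 5.10, 5.56 and 7.33 in lamina propria pools 1, 2 and 3, and 7.43, 7.56 and 7.25 in marrow pools 1, 2 and 3. Pools 1 and 2 of the lamina propria were low, whereas pool 3 lay inside the marrow range. The SD was 1.18 in the lamina propria and 0.16 in the marrow (n = 3 each). The tissue difference was -1.41 (95% interval -2.67 to -0.16, limma adjusted p = 0.356). Without lamina propria pool 3 it passed, at -2.08 (limma adjusted p = 0.00737), in a setting that called 36.2% of all genes. With estimated array weights it was -2.02 (limma adjusted p = 0.0167, 28% of all genes called). That setting also discounts lamina propria pool 3, whose weight was 0.153, the lowest of the arrays.

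The next largest negative differences were in large subunit genes. Rpl4, which lines the peptide exit tunnel, measured 11.04, 9.84 and 11.79 in the lamina propria and 11.55, 11.63 and 11.76 in the marrow, a difference of -0.75 (95% interval -1.83 to 0.32). Its lamina propria pools lay on both sides of the marrow, with pool 3 the highest of all 6 arrays. Rpl6 measured 10.09, 9.02 and 9.95 against 10.24, 10.27 and 10.37, a difference of -0.60 (95% interval -1.32 to 0.11, limma adjusted p = 0.357). It was the 1 gene with every lamina propria pool below every marrow pool.

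Rpl7 measured 9.28, 9.33 and 10.39 in the lamina propria and 10.05, 10.43 and 10.12 in the marrow, a difference of -0.53 (95% interval -1.31 to 0.25). Again pools 1 and 2 were low and pool 3 was within the marrow range, and the 4 probe sets of the gene differed by -0.61 to -0.50. Without lamina propria pool 3 it passed at -0.90 (limma adjusted p = 0.0225). Rpl30, whose yeast counterpart binds its own transcript, differed by -0.56 and had lamina propria pool 1 at 6.32 and the others at 7.65 and 7.93, against 7.70 to 8.10 in the marrow. Rpl23a, which docks the signal recognition particle at the tunnel exit, differed by -0.22 (95% interval -0.84 to 0.39).

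Rpl38, known from Tail short mice for its part in the translation of Hox mRNAs, measured 9.84, 9.38 and 10.82 in the lamina propria and 10.66, 11.12 and 9.83 in the marrow. The tissues overlapped, and the difference was -0.52 (95% interval -1.59 to 0.54). Rpl24, mutated in Belly spot and tail mice, and Rpl26, which binds p53 mRNA, differed by 0.06 (95% interval -0.87 to 1.00) and -0.14 (95% interval -0.74 to 0.46). Rpl5, part of the particle of the smallest ribosomal RNA that restrains Mdm2, was steady in the lamina propria at 11.02, 11.01 and 11.05, while the marrow pools gave 11.04, 11.32 and 10.53. Its difference was 0.06 (95% interval -0.52 to 0.64). Rpl9 differed by -0.12, with an SD of 0.04 over the lamina propria pools.

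Rpl22, which early T and B cells need more than other cells do, measured 7.75, 6.78 and 7.01 in the lamina propria and 6.96, 7.03 and 7.21 in the marrow. Lamina propria pool 1 lay above the marrow range and pool 2 below it, and the difference was 0.11 (95% interval -0.56 to 0.78). Rpl34 measured 7.24, 7.62 and 6.82 against 6.39, 6.53 and 7.07, a difference of 0.56 (95% interval -0.12 to 1.24). Marrow pool 3 lay above lamina propria pool 3, so the tissues overlapped. Rpl36 differed by 0.56 (95% interval -0.23 to 1.35), and its 9 probe sets by 0.50 to 0.67. It measured 10.72, 11.24 and 9.99 in the marrow, and without marrow pool 3 the difference was 0.23.

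Among small subunit genes, Rps6, the protein that S6 kinase phosphorylates when cells grow, measured 12.11, 11.95 and 12.01 in the lamina propria and 11.91, 12.02 and 12.18 in the marrow. The tissues overlapped, with a difference of -0.01 (95% interval -0.46 to 0.44). Rps20, Rps12 and Rps4x, the X-linked S4 protein, differed by -0.07, -0.08 and -0.07, each with overlap. Rps19, the gene most often mutated in Diamond-Blackfan anaemia, measured 10.81, 9.76 and 9.67 against 9.54, 9.85 and 9.80, a difference of 0.35 (95% interval -0.42 to 1.12). Only lamina propria pool 1 lay above the marrow range, and without it the difference was -0.01. Rps10, ubiquitinated when ribosomes collide, measured 10.19, 10.54 and 9.92 in the lamina propria and 9.68, 10.42 and 9.15 in the marrow. The difference of 0.47 (95% interval -0.35 to 1.29) was 0.17 without marrow pool 3.

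The marrow pools differed among themselves. Marrow pool 2 exceeded marrow pool 1 for 52 of the 55 genes, with a median of 0.29, whereas it did so for 49.1% of all genes. Among the 232 other genes in the middle range of the group it did so for 142, with a median of 0.06. Marrow pool 3 lay more than 1 below the mean of marrow pools 1 and 2 for 10 of the 55 (2.15% of all genes) and more than 1 above it for 0. Both shares rest on the probe set chosen per gene, and with the mean over a gene's probe sets 15 of the 55 were that low. Outside the 10, probe sets ran from -2.20 to -0.68 for Rpl13, -2.88 to -0.90 for Rps10 and -2.63 to -0.83 for Rps15. Those of Rps6 ran from 0.11 to 0.26. Pool 3 lay below both other marrow pools for 36 of the 55 (39.5% of all genes), with a median of -0.35 beside -0.02 over all genes. Of the 6 arrays, marrow pool 3 was the lowest for 27 genes (23.5% of all genes) and marrow pool 2 the highest for 24 (7.63% of all genes). These counts compare single arrays and have no test.

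**Figure D2:**
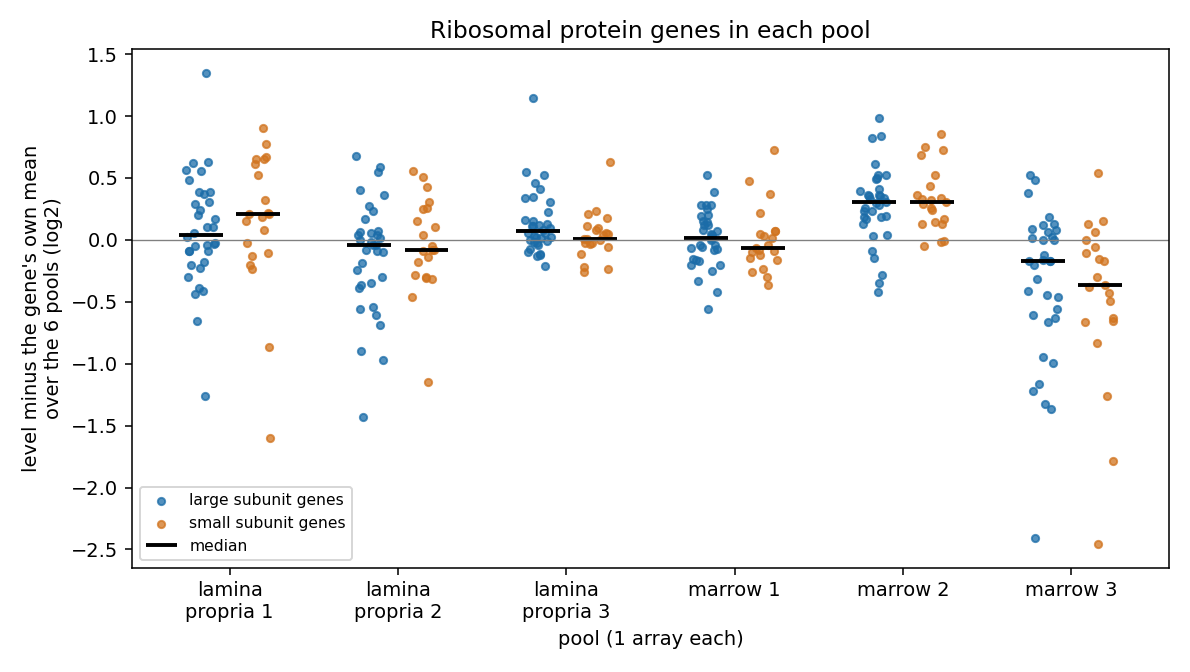
Level of each gene minus its own mean over the 6 pools, in log2 units (y axis), for each pool (x axis). Points are genes, coloured by subunit, and bars are medians per subunit, which stand at 0.30 for both subunits in marrow pool 2 and at -0.17 (large) and -0.36 (small) in marrow pool 3.

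Rps14, a small subunit protein known from the anaemia of human chromosome arm 5q loss, showed the widest gap among the probe sets chosen per gene. It measured 11.49, 11.70 and 8.56 in marrow pools 1, 2 and 3 and 11.79, 11.32 and 11.22 in the lamina propria. Pool 3 minus the mean of the other marrow pools was -3.04, and -2.72 by the gene's other probe set. The difference between the tissues, 0.86 (95% interval -0.96 to 2.68, limma adjusted p = 0.48), was -0.15 without that array.

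Rpl8, a protein close to the peptidyl transferase centre, measured 9.53, 9.86 and 6.84 in the marrow and 10.59, 9.30 and 9.36 in the lamina propria. Again marrow pool 3 alone was low, at -2.86 against the other marrow pools, and the tissue difference of 1.01 (95% interval -0.84 to 2.86, limma adjusted p = 0.434), the largest positive one of the group, was 0.06 without it. Rps2, near the mRNA entry of the small subunit, measured 10.47, 11.00 and 8.46 in the marrow and 10.90, 10.41 and 10.26 in the lamina propria. Its 3 probe sets placed marrow pool 3 at -2.27 to -0.31 against the others, so the size of the gap depended on the probe set. The tissue difference of 0.54 (95% interval -0.89 to 1.98) was -0.21 without that array.

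Rpl10, which joins the large subunit late in its assembly and is mutated in some T cell leukaemias, measured 10.95, 11.41 and 9.10 in the marrow and 10.12, 10.23 and 10.73 in the lamina propria. Its difference of -0.12 (95% interval -1.45 to 1.21) was -0.82 without marrow pool 3. Every lamina propria pool then lay below both remaining marrow pools, as for 5 of the 55 genes and 11.4% of all genes. The remaining genes of the 10 were Rpl37a, Rps21, Rpl27, Rpl41, Rpl28 and Rpl38, with pool 3 at -1.87 to -1.06 against the other marrow pools. The other probe set of Rps21 gave -3.10, beside -1.71 by the one chosen. In each of the 10 except Rpl38, marrow pool 3 was the lowest of the 6 arrays.

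More than 1 probe set was available for 8 of the 10 genes, and for 7 of the 8 every one had marrow pool 3 lower by more than 1. The exception was Rps2. Probe sets of a gene can share sequence, and the 3 of Rpl41 held identical values, so they are not independent. The 10 were picked for a low marrow pool 3, so leaving that array out must lower each of their differences. Without it, 2 of the 10 kept a positive difference between the tissues, Rpl8 and Rpl41, against 8 with it. This change follows from how the 10 were picked.

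**Figure D3:**
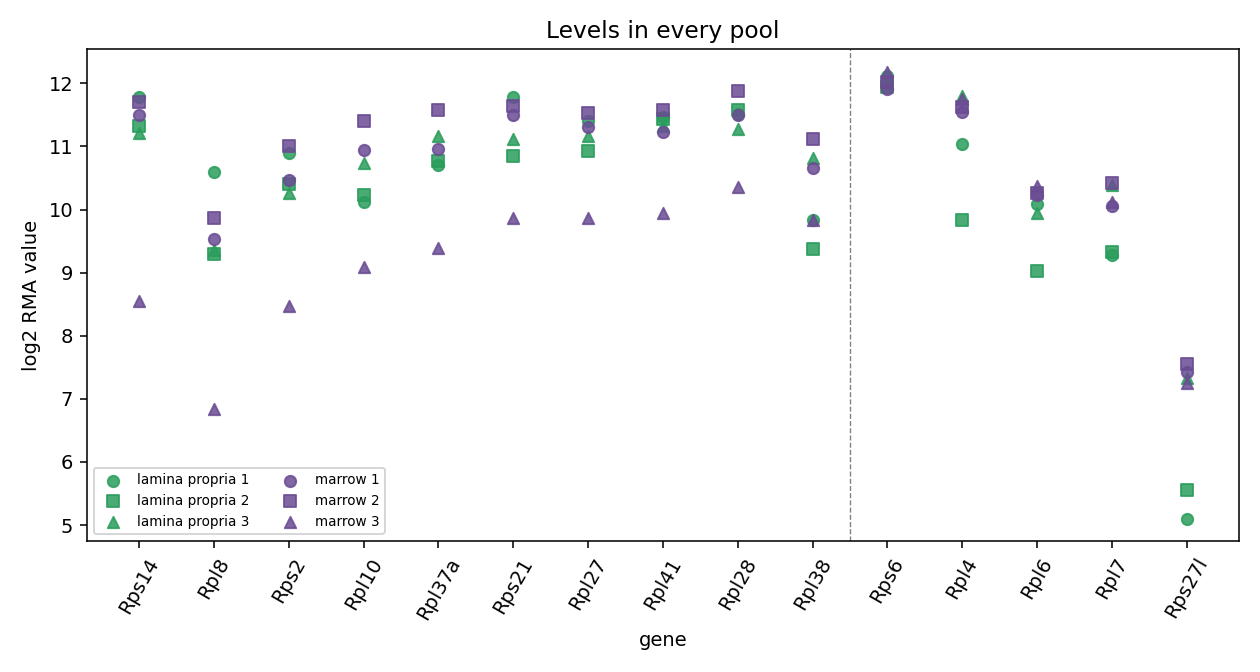
log2 RMA values in each pool (y axis, 1 marker per pool) for the 10 genes that marrow pool 3 measured lowest against the other marrow pools (left of the dashed line) and for Rps6, Rpl4, Rpl6, Rpl7 and Rps27l (right). Marrow pool 3 stands at 8.56 for Rps14 and 6.84 for Rpl8, apart from the other 5 pools, while lamina propria pools 1 and 2 stand apart for Rps27l.

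The SD over the marrow pools had a median of 0.30 and exceeded that over the lamina propria pools for 28 of the 55 genes, whereas over all genes the median SD was 0.17 in the marrow and 0.39 in the lamina propria and the marrow SD was the larger for 18.2%. Of the 232 other genes in the middle range of the group, 17 (7.33%) were lower by more than 1 in marrow pool 3 and their median was 0.18, beside 7 of the 27 ribosomal protein genes in that range and a median of -0.68. Of the 11 measured B lineage genes, marrow pool 3 was below the mean of the other marrow pools for 6, by more than 1 for 3 of them, and above it for 5. Of these 3, Cd79a measured 8.17, 8.00 and 6.27 in the marrow pools, Igll1 11.07, 11.43 and 9.59, and Pax5 10.29, 9.95 and 8.47. Marrow pool 2 had the highest summed level of 13 granulocyte markers, 10.32 on the log2 scale against 8.68 to 9.20 in the other arrays. It exceeded marrow pool 1 for 8 of the 13, most of all for S100a9 (9.26 against 6.56) and S100a8 (7.48 against 5.27), and lay below it for Ngp, Elane, Prtn3, Ly6g and Csf3r. The part of either in the pool pattern was not tested.

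**Figure D4:**
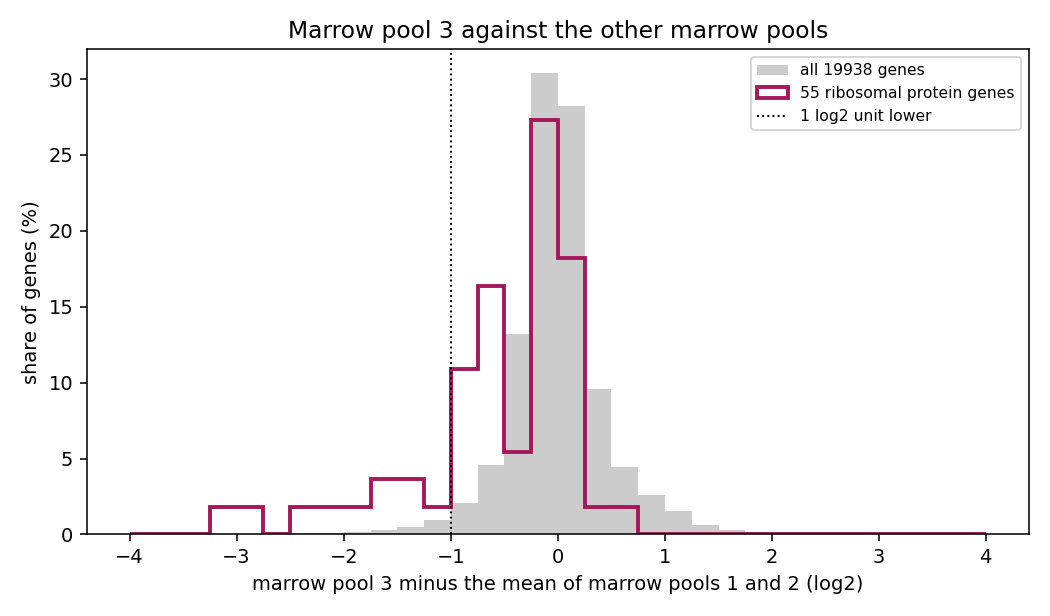
Marrow pool 3 minus the mean of marrow pools 1 and 2, in log2 units (x axis), as the share of genes per 0.25 log2 unit (y axis), for all 19938 genes (grey) and the 55 ribosomal protein genes (outline). The outline reaches further to the left, with 10 of 55 genes beyond 1 log2 unit against 2.15% of all genes, and has no gene beyond 1 on the right.

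The median difference between the tissues was 0.09 over 34 large subunit genes and 0.14 over 21 small subunit genes, with 19 and 12 positive. Without marrow pool 3 these medians were -0.15 and -0.08. The median level of small minus large subunit genes was 0.30, 0.99 and 0.60 in lamina propria pools 1, 2 and 3, and 0.50, 0.47 and 0.39 in the marrow pools. The lamina propria pools enclosed the marrow values, at 0.63 ± 0.35 against 0.45 ± 0.06 (SD, n = 3 each). With each gene centred on its own mean, small minus large was 0.17, -0.04 and -0.06 against -0.08, 0.00 and -0.19, and in either form the tissues overlapped. Marrow pool 3 was lower by more than 1 for 7 of the 34 large and 3 of the 21 small subunit genes. Marrow pool 2 exceeded pool 1 for 31 and 21 of them.

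Among the relatives of core genes, Rpl10l and Rpl39l, known as testis forms, were the 2 genes with every lamina propria pool above every marrow pool. Rpl10l measured 4.59, 4.12 and 4.36 against 4.05, 4.06 and 4.05, and Rpl39l 3.82, 4.30 and 3.74 against 3.46, 3.43 and 3.54. Both lay below the median of every array, so these differences of 0.30 and 0.48 (limma adjusted p = 0.398 and 0.356) concern dim signals. Rpl3l, the muscle form, differed by -0.07, and Rps4l by 0.44 (95% interval -0.12 to 1.00). Rps4l and Rpl12 had no RefSeq mRNA among the accessions of their probe set, so what their probes measure is less certain.

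Other genes of the ribosome and of translation were taken from lists chosen for their roles. Among 6 measured ribosomal protein genes and relatives with other names, 4 were lower by more than 1 in marrow pool 3 (2.15% of all genes). Rplp0, of the stalk that recruits elongation factors, measured 11.66, 11.88 and 10.35 in the marrow and 11.42, 11.27 and 11.59 in the lamina propria. Rplp1, Rplp2 and Fau, a fusion gene that encodes the small subunit protein eS30, stood at -1.68, -1.23 and -1.62 in that pool against the other marrow pools, and Rpsa at -0.85. Their differences between the tissues were 0.13 for Rplp0, 0.15 for Rplp1, 0.44 for Rplp2, 0.39 for Fau and 0.17 for Rpsa. Without marrow pool 3 they were -0.34, -0.41, 0.03, -0.16 and -0.11 in that order, and the median over the 6 genes was -0.25 in place of 0.16. Rpl7l1 differed by -0.54, and none of the 6 passed.

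Of 34 measured translation factors, 2 were lower by more than 1 in marrow pool 3 (Eif3k and Eif3l), the median being 0.20. That drop held for 2.15% of all genes and 7.33% of the 232 other genes in the middle range of the group. Between the tissues 26 were negative and 8 positive with a median of -0.28. Positive were 67.6% of all genes, but 47.6% of those above the median level. Of the 34, 0 lay below the array's median in all arrays. By limma 0 passed, and 2 had an unadjusted p under 0.05, against 13.7% of all genes. Gspt1, a release factor, measured 5.61, 3.80 and 8.24 in the lamina propria against 8.31, 7.87 and 9.14, and Eif2s3x, of the initiator tRNA carrier, 6.58, 5.15 and 10.26 against 8.65, 10.07 and 10.57. In both, lamina propria pools 1 and 2 were low and pool 3 was within the marrow range. Eif3k and Eef1b2 had the largest positive differences, 0.65 and 0.38. Without lamina propria pools 1 and 2, which leaves pool 3 alone and was tried after seeing the data, the list's median was 0.10.

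Of 61 measured genes of ribosome biogenesis, 43 were negative and 18 positive with a median of -0.44. Positive were 67.6% of all genes, but 47.6% of those above the median level. Only 1 of the 61 lay below the array's median in all arrays. By limma 0 passed, and 5 had an unadjusted p under 0.05, against 13.7% of all genes. Without lamina propria pools 1 and 2 the median was 0.30. Mphosph10 and Wdr43, of the small subunit processome, differed by -1.34 and -1.31. Fbl, the methyltransferase fibrillarin, measured 10.11, 10.09 and 9.51 in the lamina propria and 8.77, 9.14 and 8.37 in the marrow, and Rrp9 differed by 0.65. All lamina propria pools were above all marrow pools for Fbl, at 1.14 (95% interval 0.48 to 1.80, limma adjusted p = 0.301).

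Among 16 measured regulators of growth, the median was -0.12 with 0 past the threshold (limma). At an unadjusted p under 0.05 there were 2, against 13.7% of all genes. Mycn, a MYC family factor that drives ribosome production, measured 6.73, 7.39 and 6.23 in the lamina propria and 5.05, 5.45 and 5.75 in the marrow. The groups did not overlap, with a difference of 1.37 (95% interval 0.57 to 2.16, limma adjusted p = 0.304). Myc differed by 0.81 (95% interval -0.22 to 1.84). Max, the partner of both, measured 8.79, 6.26 and 10.07 in the lamina propria and 10.10, 9.93 and 9.65 in the marrow. Its difference was -1.52 (95% interval -3.50 to 0.47), and lamina propria pool 3 lay inside the marrow range. Eif4ebp2, an inhibitor of cap-dependent initiation, differed by -0.90 (95% interval -1.60 to -0.19), with every lamina propria pool below every marrow pool.

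Markers of other cell types were compared as summed levels on the log2 scale. All 12 measured T cell markers and all 20 epithelial markers had positive differences. So had 67.6% of all genes, but 47.6% of those above the median level. Positive differences were thus more common among dim genes. Below the median of every array lay 5 of the T cell and 10 of the epithelial markers. Every lamina propria pool lay above every marrow pool for 6 of the 12 T cell and 7 of the 20 epithelial markers. This held for 14.8% of all genes and 9.01% of those above the median level. The reverse order held for 0 of the markers in either list. T cell markers summed to 9.45 to 9.63 in the lamina propria against 9.07 to 9.30 in the marrow, and epithelial markers to 9.82 to 10.14 against 9.43 to 9.56. The 5 erythroid markers reached 7.66 to 8.37 against 7.73 to 7.79, and the 13 macrophage markers 9.17 to 9.99 against 9.24 to 9.71, with lamina propria pool 3 the highest. The B lineage markers summed to 13.63 to 13.81 in the lamina propria and 13.89 to 14.11 in the marrow. The part of these cells in the ribosomal protein values was not tested.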

How the data were processed

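The deposited values are on a log2 scale. Per the submitters' processing notes the authors ran RMA with Expression Console 1.3.0.187 (Affymetrix). Per the labels' protocols, 4.5 to 47 ng of Trizol RNA were amplified before biotin labelling. The values were used as deposited. Of 35556 probe sets, 21789 had 1 gene symbol and 1621 several in the platform's table, and 12146 were unnamed here. All 55 symbols matched RefSeq (GRCm38.p6) by Entrez identifier. The 55 genes had 205 probe sets of 1 symbol. Of 36 genes with several, 10 had probe sets differing in sign between the tissues.

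Lamina propria and bone marrow were compared over all 19938 genes in limma 3.58.1 under R 4.3.3 (lmFit, eBayes, two-sided, no block), which was tested on simulated data. Pools are the replicates. The genes and lists were chosen with earlier results of these data known. Named were the 5 largest differences in each direction, the 3 brightest and 3 dimmest by mean over the arrays (only to choose names, since brightness depends on the probes), the 2 largest and 2 smallest lamina propria SDs, members of a set picked for their roles, and in each related list the 2 largest differences in each direction, not all of them printed. Genes low in marrow pool 3, and others, were named after their values were seen. Rpl3, Rpl11, Rpl13a, Rpl32, Rpl35a, Rpl39, Rps24, Rps26 and Rps27 were in that set and not analysed here. Pool numbers were not used to pair the samples, since the labels do not say whether same-numbered pools belong together. Alternatives were each array left out, other scalings, probe set rules, a filter on dim genes, a replicate block, variance settings and array weights. Leaving out lamina propria pools 1 and 2, and centring genes, were added after seeing the data. Figures were drawn with matplotlib 3.10.9.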

Additional observations from a re-analysis of the deposited data

How the results depend on the processing

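With arrays brought to one interquartile range, the median differences were 0.726 (all 55 genes), 0.604 (large subunit), 0.888 (small subunit) and 0.879 (ribosomal proteins with other names), 0.128 (translation factors), 50 genes were positive (60.8% of all genes), and 0 were higher and 0 lower in every pool (13.2% and 7.89% of all genes). Signs turned in Rpl10 (0.54), Rpl23a (0.58), Rpl26 (0.55), Rpl38 (0.07), Rpl7 (0.02), Rpl9 (0.60), Rps12 (0.82), Rps20 (0.84), Rps4x (0.79) and Rps6 (0.91). With quantile normalization, 1 gene was higher and 6 lower in every pool (15.9% and 7.27% of all), and Rpl3l (0.03) and Rpl5 (-0.02) turned. With centred arrays 1 was higher in every pool (15.3% of all), and among genes above the median level 0 (9.01%). With estimated array weights 2 genes were called (28% of all), Rps27l (-2.02) and Rpl7 (-0.85), growth regulators had a median of -0.340, and Rpl24 (-0.01), Rpl26 (0.01), Rpl5 (-0.06) and Rps6 (0.04) turned. Without lamina propria pools 1 and 2, chosen after seeing the data and leaving 1 lamina propria pool assumed to vary like the marrow pools, 4 genes were higher and 2 lower in every pool (24.8% and 26.7% of all). The medians were 0.114 (growth regulators), 0.296 (ribosome biogenesis) and 0.104 (translation factors), and Rpl10 (0.25), Rpl22 (-0.06), Rpl30 (0.07), Rpl38 (0.29), Rpl4 (0.15), Rpl7 (0.20), Rps19 (-0.06) and Rps4x (0.06) turned. The cause of these changes was not tested.

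Leaving out 1 pool at a time gave medians of -0.119 to 0.262 (all 55 genes) and -0.153 to 0.252 (large subunit), 20 to 36 positive genes (65.6% to 68.6% of all), 0 to 3 called (0% to 36.2%), 2 to 10 higher (16.6% to 51.2%) and 1 to 9 lower in every pool (8.89% to 18.7%). The calls of Rps27l (-2.08), Rpl7 (-0.90) and Rps4l (0.61), and the 9 lower (18.7% of all), came only without lamina propria pool 3, and the 10 higher only without marrow pool 2 (19.9% of all). Differences ran over 0 in Rpl10 (-0.82 to 0.34), Rpl22 (-0.17 to 0.31), Rpl24 (-0.20 to 0.42), Rpl26 (-0.37 to 0.02), Rpl3l (-0.15 to 0.01), Rpl5 (-0.15 to 0.24), Rpl9 (-0.24 to 0.03), Rps12 (-0.19 to 0.06), Rps14 (-0.15 to 1.42), Rps19 (-0.01 to 0.56), Rps2 (-0.21 to 1.06), Rps20 (-0.20 to 0.06), Rps4x (-0.24 to 0.08) and Rps6 (-0.08 to 0.06). With the pool number as a replicate block 0 of the 55 genes and 16 of all genes were called (limma). Same-numbered pools deviated together with r = 0.131, 0.051 and 0.226 for pools 1, 2 and 3. Pools of different number gave r from -0.211 to 0.133. The sample labels give no shared litter or day, so whether the pools are paired is unknown. The number of arrays, 3 per tissue, limits the precision.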

Other observations

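Probe sets that the platform's table assigns to several genes entered no comparison. Among them, 231 list at least 1 symbol of the group's pattern beside other genes, and 16 ribosomal protein symbols occur in such probe sets only. As probe sets, without a gene name, they gave these values. The median difference between the tissues was 0.05, with 151 of 231 positive (67.6% of all genes were). Every lamina propria pool lay above every marrow pool in 6 and below in 0 (14.8% and 7.27% of all genes). Marrow pool 2 exceeded marrow pool 1 in 228 (49.1% of all genes), and marrow pool 3 lay more than 1 below the mean of the other marrow pools in 93 (2.15% of all genes), with a median of -0.77. Of the 231, 226 held distinct values, so some repeat each other.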
